A study of Homo sapiens with 8 samples.

Results

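The tubulin genes described here are the 10 rows of the deposited tables named TUBA1A, TUBA1B, TUBA1C, TUBA4A, TUBB, TUBB2A, TUBB2B, TUBB4B, TUBB6 and TUBG1, out of 59414 genes in the count table. They were chosen by gene symbol, with no threshold on a measured value but with earlier results of these data known. The libraries came from HEK293T, an established human embryonic kidney cell line, expressing RNA editors for processing bodies (P-bodies), by the approach named PB-TRIBE-STAMP in the labels. The editors change adenosine to inosine (A-to-I) and cytidine to uridine (C-to-U), so an edited read marks an RNA that an editor may have met. There were 4 groups of 2 libraries each, numbered by batch. Sorted P-bodies and cytosol form the sort, made from 50 and 100 ng of RNA, so that fraction and input amount cannot be told apart. Cells given an siRNA against EDC4 (siEDC4) or a control siRNA (siNC) form the knockdown, made from 500 ng of total RNA each. No group without the editors was analysed here, all 8 libraries come from the same line, and whether the 2 libraries of a group are separate cultures is not stated. P-values therefore measure only the spread between these libraries, which may be technical.

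Alpha- and beta-tubulin pair into the heterodimer from which microtubules are built, and gamma-tubulin, within a ring complex, starts new microtubules at the centrosome. Cells hold the amount of free tubulin steady by autoregulation. When free heterodimer accumulates, TTC5 binds the beginning of a newly made alpha- or beta-tubulin chain at the ribosome, and SCAPER brings the CCR4-NOT deadenylase, through its subunit CNOT11, to the mRNA being translated. P-bodies are cytoplasmic granules of mRNA decay and repression proteins, among them EDC4, a scaffold of the decapping complex.

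The first 30 coding bases are shown because they encode the beginning of the chain that autoregulation reads. Capitals mark the first 12 bases, the first 4 codons. The sequences are those of GENCODE release 29 transcripts (GRCh38, the build hg38 of the files), and all 10 genes had one.
TUBA1B: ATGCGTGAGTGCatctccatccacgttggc
TUBA4A: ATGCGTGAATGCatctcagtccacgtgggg
TUBB: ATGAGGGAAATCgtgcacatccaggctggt
TUBB6: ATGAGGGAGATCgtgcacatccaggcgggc
TUBG1: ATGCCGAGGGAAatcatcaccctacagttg
TUBA1A and TUBA1C have the same 30 bases as TUBA1B. The start codon of TUBA1B begins at position 49131300 of chromosome 12 on the minus strand, in exon 1 of 4. Only 3 coding bases lie in that exon in each of the 4 alpha-tubulin genes, against 57 in each of the 5 beta-tubulin genes.

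The copies are so alike that reads may not be assigned to the right gene. TUBA1A and TUBA1B were identical at 1315 of 1353 coding positions (97.2%), and TUBB2A and TUBB2B at 1311 of 1335 (98.2%). The 30-base coding stretch with the most differences between TUBB2A and TUBB2B is shown to make that visible, with capitals at the bases of TUBB2B that differ from TUBB2A.
TUBB2A: agaatcaacgtgtactacaatgaggctgct
TUBB2B: agaatcaaTgtTtactacaatgaAgcCAct
The stretch covers coding positions 136 to 165 and holds 5 of the 24 differences between the pair. A read from most other parts of these coding sequences meets fewer such bases.

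The share of a gene's 50-base windows that occur in no other annotated gene measures this. It was 99% for TUBB6, 85.4% for TUBB4B, 69.7% for TUBG1, 69.2% for TUBB, 67.4% for TUBA4A and 59.9% for TUBA1C. It was 48.2% for TUBA1A, 47.8% for TUBB2B, 34.5% for TUBB2A and 12.9% for TUBA1B. TUBA1B shared 68.7% of its windows with AC011603.2, an annotated gene on the other strand of the same place, and 38.6% with TUBA1A. The sources used here give neither the use of strand in counting nor the treatment of reads that match several genes. Counts of all the members but TUBB6 are uncertain through such shared windows. All 10, TUBB6 included, overlap the span of a gene on the other strand, and what this did to their counts was not tested.

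In the count table of the sort the members took 0.268% to 0.366% of each library's 21186963 to 23716926 counts. The table also has 52 tubulin pseudogene rows, of which 31 had no count in any library. Together the pseudogenes held between 0.730% and 1.125% as many counts as the members, most of them in TUBBP5. The HEK293 line markers PAX2, NEFL, NEFM and VIM were all above 1 CPM (counts scaled to library size by TMM) in every library. The summed blood cell markers lay between 0.636 and 1.64 CPM with CD3E and HBB at 0. Fibroblast markers summed to 16.5 to 30.5 CPM. Epithelial tumour line markers summed to 50.4 to 91.1 CPM, with 4 of 5 above 1 CPM in every library and KRT19 at 0. All 3 of these sums were lower in sorted P-bodies than in cytosol. The summed HEK293 line markers were lower there too, at 264.2 and 255 CPM in the sorted libraries against 391.8 and 410.6 CPM in cytosol. Among the line markers only NEFL was higher in sorted P-bodies. The part of these sums in the results was not tested. The siNC libraries differed in reads by little more than sampling noise (chi-square 1.021 per degree of freedom, p = 0.0626), against 3.46 for the siEDC4 pair. The cytosol pair stood at 3.25 and the sorted P-body pair at 26.4, the pair that differed most. The C-to-U edited reads of the siNC libraries differed by more than such noise (1.095 per degree of freedom over 3224 genes). The siNC libraries were summed and counted as 1 sample in tests of the knockdown.

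Levels between genes were compared per length, as CPM per kilobase of the exon length given in the deposited count table. TUBB, the main beta-tubulin of dividing cells, was highest in every library, at 414 and 361 (sorted P-bodies) and 356 and 381 (cytosol). TUBA1B, the main alpha-tubulin, followed at 255 and 208 against 271 and 291. TUBB4B, a beta-tubulin also used in cilia, stood at 162 and 135 against 141 and 155. These 3 genes kept this order in each library.

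The next group was several-fold lower. In cytosol the means (SD, n = 2) were 35.5 ± 1.93 CPM per kilobase for TUBG1, the gamma-tubulin of the centrosome, 33.7 ± 2.39 for TUBA1C and 28.3 ± 2.48 for TUBA1A, an alpha-tubulin prominent in neurons. The libraries of TUBG1 and TUBA1C overlapped, so their order is not set. Then came TUBB6 at 14.6 ± 0.835, TUBB2B at 10.9 ± 0.366 and TUBB2A at 6.99 ± 0.676, which did not overlap their neighbours in cytosol. In sorted P-bodies TUBB6 (23.7 and 19.7) overlapped TUBA1A (25.01 and 19.6). TUBA4A, an alpha-tubulin whose levels are high in muscle, neurons and platelets, was lowest at 0.584 and 0.474 against 1.05 and 1.11.

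**Figure D1:**
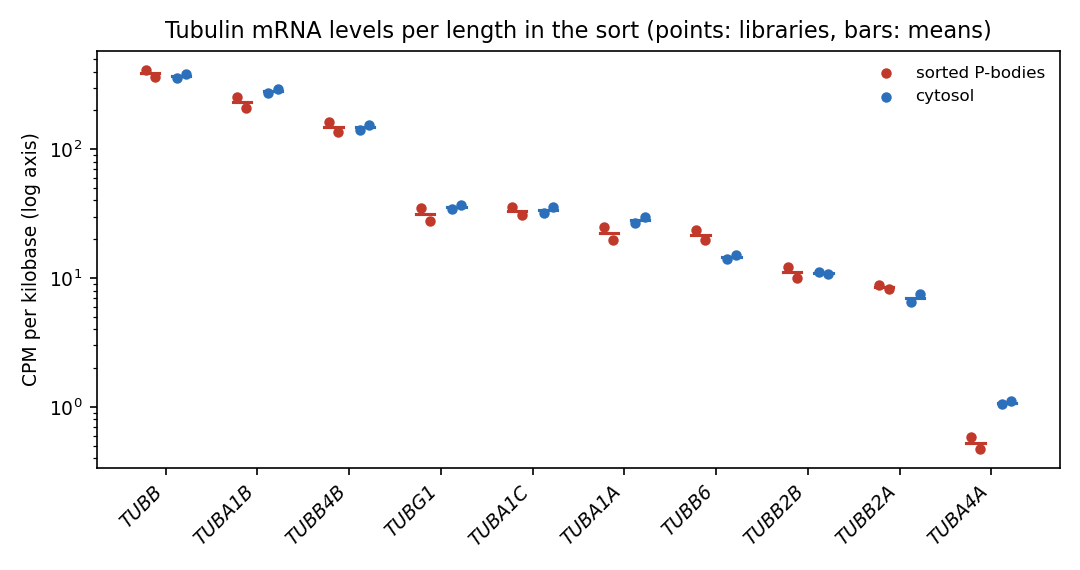
CPM per kilobase (log axis) of the 10 tubulin genes in the sort, with 1 point per library and a bar at the mean of each group, sorted P-bodies in red and cytosol in blue. TUBB, TUBA1B and TUBB4B lie above 100 in every library. The groups stand apart upwards for TUBB6 and TUBB2A, and downwards for TUBA4A, TUBA1A and TUBA1B.

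Within each isotype the share of the main copy was similar in both fractions. Of alpha-tubulin counts TUBA1B supplied 78.0% and 77.6% in the sorted libraries against 79.6% and 79.0% in cytosol. Of beta-tubulin counts TUBB supplied 77.2% and 77.9% against 78.0% and 77.8%. TUBB6 supplied 4.28% and 4.12% against 2.98% and 3.01%, the only beta-tubulin besides TUBB2A whose share was higher in both sorted libraries.

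The first comparison asked which tubulin mRNAs were richer in sorted P-bodies than in cytosol. TUBB6 was higher, TUBA4A was lower, and the abundant TUBB, TUBA1B and TUBB4B did not pass the test. All 10 members were measured, and 1 rose and 1 fell at an adjusted p under 0.05 (edgeR), where 28.8% of all 18745 tested genes rose and 29% fell. With library size as the only scaling 1 member rose and 4 fell, where 4257 of all genes rose and 6911 fell, against 5401 and 5440 with TMM. The median log2 fold change was -0.01 over the members and -0.03 over all genes tested.

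TUBB6 had 93.4 and 77.8 CPM in the sorted libraries and 55.3 and 59.9 CPM in the cytosol libraries. Both sorted libraries were above both cytosol libraries. The log2 fold change was 0.57 ± 0.12 (SE, adjusted p = 0.0024, edgeR). It did not pass without cytosol library 1 (0.49, adjusted p = 0.0556). Libraries of a whole fraction cannot tell apart fewer cells with an RNA from less of it per cell. AFG3L2 lies on the other strand across 15377 bases of the span of TUBB6. It had 1641 and 1314 counts in the sorted and 1702 and 1914 in the cytosol libraries, and its part in the result was not tested.

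TUBA4A had 2.315 and 1.88 CPM in the sorted libraries and 4.17 and 4.40 CPM in the cytosol libraries, from 51, 36, 102 and 110 counts. Every cytosol library was above every sorted library. Its log2 fold change was -1.02 ± 0.22 (adjusted p = 0.0027, edgeR). STK16 lies on the other strand across 628 bases of TUBA4A, had 408 and 343 counts in the sorted and 570 and 609 in the cytosol libraries, and its part in the result was not tested.

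TUBA1A had 95.6 and 74.9 CPM in the sorted libraries and 101.4 and 115 CPM in cytosol, and TUBA1B had 913 and 742 CPM against 969 and 1039. For both genes the cytosol libraries were above the sorted ones. TUBA1A stood at -0.34 ± 0.14 (adjusted p = 0.0533, edgeR) and TUBA1B at -0.28 ± 0.13 (adjusted p = 0.095), so neither passed. With the batch number as a replicate block, TUBA1A passed (-0.35, adjusted p = 0.0168), and without filtering low counts both did (-0.38 and -0.32, adjusted p = 0.0088 and 0.0139). With library-size scaling both passed as well, at -0.54 and -0.48 (adjusted p = 0.0112 and 0.0153, edgeR).

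TUBB2A had 25.9 and 23.8 CPM in the sorted libraries and 18.9 and 21.7 CPM in cytosol, again without overlap. Its log2 fold change of 0.29 ± 0.12 did not pass (adjusted p = 0.0545, edgeR) and did with the replicate block (adjusted p = 0.0454). The near-identical TUBB2B had 50.5 and 41.9 CPM against 46.6 and 44.5, which overlapped (0.02 ± 0.11). The other members that did not pass were TUBB (0.07 ± 0.12), TUBB4B (0.00 ± 0.12), TUBA1C (-0.01 ± 0.12) and TUBG1 (-0.18 ± 0.13, adjusted p from 0.268 to 0.993, edgeR). TUBG1 passed with library-size scaling (-0.37, adjusted p = 0.0439, edgeR). Values of the members depended on the sorted libraries. The median log2 fold change over the members was -0.14 without sorted library 1 and 0.09 without sorted library 2. Over all genes tested it was -0.07 and -0.04 in these settings. With 1 sorted library left, the spread rests on the cytosol pair alone, so calls made there say little about the members.

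Alpha- and beta-tubulin counts were also summed, since a sum is less affected by reads moved between copies. Summed alpha-tubulin was at 1171 and 957 CPM in the sorted libraries against 1217 and 1316 CPM in cytosol, a log2 difference of -0.26. Summed beta-tubulin was at 2184 and 1889.7 CPM against 1856 and 1993 CPM, a log2 difference of 0.08 that turned to -0.12 with library-size scaling. Alpha-tubulin was lower in both sorted libraries and beta-tubulin overlapped. An exact two-sided permutation test gave p = 0.3333 and p = 0.6667, and 0.3333 is the smallest p that 2 against 2 libraries allow.

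**Figure D2:**
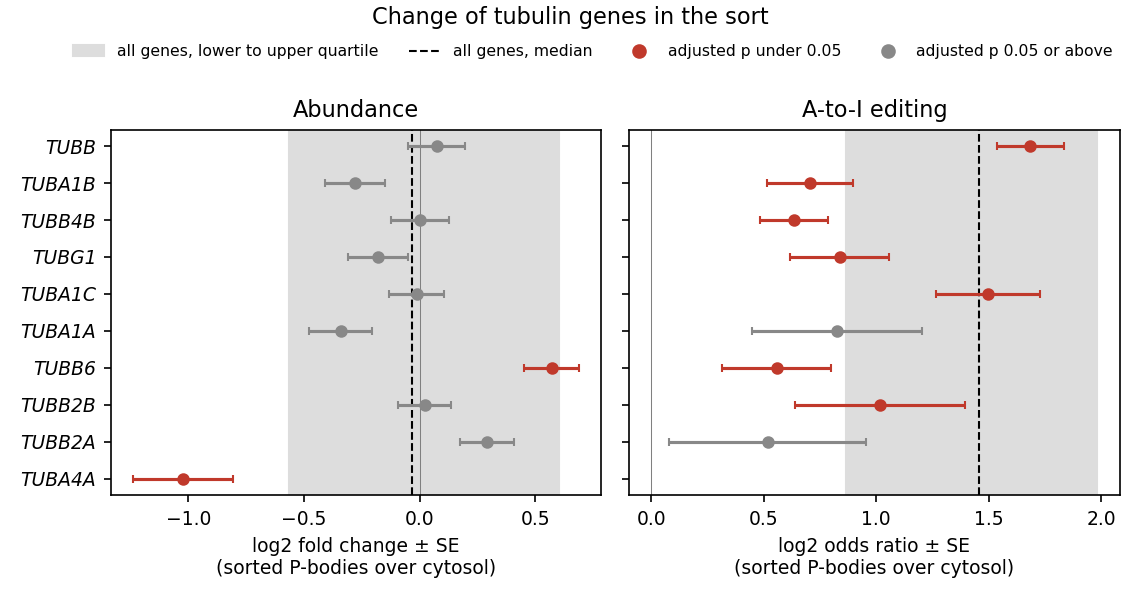
Log2 fold change of abundance (left) and log2 odds ratio of A-to-I editing (right) of sorted P-bodies over cytosol, ± SE, in order of level per length, with red for an adjusted p under 0.05 and grey otherwise; the dashed line is the median of all genes tested and the shaded band spans their lower to upper quartile. TUBB6 and TUBA4A pass on the left, and on the right every member lies above 0 while only TUBB and TUBA1C lie above the dashed line at 1.46; TUBA4A was not tested there.

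A-to-I editing is given as a score, the percentage of the reads of a gene that carry an edit. In the sort, scores of most members were higher in P-bodies than in cytosol, with a median ratio below that of all genes. Of the 10 members 9 had edited reads in enough libraries to be tested, and 7 of these were higher and 0 lower (edgeR on edited and unedited reads), where 73.5% of 11303 tested genes were higher and 1.08% lower. The median log2 odds ratio was 0.83 over the members and 1.46 over all genes tested. Median scores over all tested genes were 7.19% and 7.41% in the sorted libraries and 2.90% and 2.77% in cytosol.

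TUBB had 604 of 20308 reads edited (2.97%) and 539 of 14846 (3.63%) in the sorted libraries, and 259 of 20928 (1.24%) and 192 of 22256 (0.863%) in cytosol. Both sorted scores were above both cytosol scores, and the log2 odds ratio was 1.69 ± 0.15 (adjusted p = 5.6e-08, edgeR). TUBA1C scored 4.81% and 3.71% in the sorted libraries against 1.88% and 1.29% in cytosol, also without overlap (1.5 ± 0.23, adjusted p = 1.9e-05). These were the only members whose ratio exceeded the median of all genes.

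TUBB4B scored 4.02% and 4.44% in the sorted libraries and 2.88% and 2.62% in cytosol (0.63 ± 0.15, adjusted p = 0.0011, edgeR). TUBA1B scored 1.22% and 1.53% against 0.672% and 0.998% (0.71 ± 0.19, adjusted p = 0.0031). TUBG1 scored 2.97% and 2.55% against 1.62% and 1.56% (0.84 ± 0.22, adjusted p = 0.0026). In each of these 3 genes the sorted libraries were the higher ones and the groups did not overlap. TUBA1B no longer passed without sorted library 2 (0.55, adjusted p = 0.0794), and TUBG1 no longer passed without sorted library 1 (0.70, adjusted p = 0.0647).

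TUBB6, the member that rose in abundance, scored 4.27% and 4.74% in the sorted libraries and 2.76% and 3.36% in cytosol. The groups did not overlap, and the log2 odds ratio of 0.56 ± 0.24 was just past the threshold (adjusted p = 0.0469, edgeR). With the replicate block it did not pass (0.58, adjusted p = 0.0548), nor without sorted library 1, sorted library 2 or cytosol library 1 (0.65, 0.49 and 0.43, adjusted p = 0.0951, 0.161 and 0.219). TUBB2B scored 3.82% and 2.98% against 1.32% and 2.19% (1.02 ± 0.38, adjusted p = 0.0224), and did not pass without sorted library 1 (0.79, adjusted p = 0.214) or cytosol library 1 (0.69, adjusted p = 0.155). TUBB2A scored 3.37% and 4.71% against 3.02% and 2.58%, which did not overlap but rested on 14, 14, 12 and 12 edited reads (0.52 ± 0.44, adjusted p = 0.293).

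TUBA1A scored 2.35% and 0.965% in the sorted libraries and 1.05% and 0.994% in cytosol. Sorted library 1 alone was high, and sorted library 2 was below both cytosol libraries. The log2 odds ratio was 0.83 ± 0.38 (adjusted p = 0.0593, edgeR), at 1.22 without sorted library 2 (adjusted p = 0.0118) and -0.08 without sorted library 1 (adjusted p = 0.892). TUBA4A had no edit in 59 sorted P-body reads, which allows a score of up to 5.08%, and 2 edited of 179 reads in cytosol.

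When edited odds were centred so that the median gene did not differ between libraries, 0 members were higher and 3 were lower (edgeR). Of 11303 tested genes 1905 were higher and 1405 lower in that setting. The 3 lower members were TUBA1B (-0.71, adjusted p = 0.0064), TUBB4B (-0.77, adjusted p = 0.00030) and TUBB6 (-0.85, adjusted p = 0.0139). TUBB and TUBA1C stayed above 0 (0.28 and 0.10) without passing. With limma on log2 scores 4 members were higher, where 8025 of all genes were higher and 338 lower. Depth sets how finely a score is known: 35154 reads gave TUBB a pooled sorted score of 3.25% with an exact 95% interval of 3.07 to 3.44%, and 712 reads gave TUBB2A 3.93% with 2.63 to 5.63%, counting error only.

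C-to-U scores of the sort were lower throughout, with medians over all tested genes of 2.76% and 3.125% in the sorted libraries and 0.633% and 0.595% in cytosol. The table lists 9 members, and TUBB4B was not analysed here. Of the 5 members with edited reads in enough libraries, TUBB and TUBA1C were higher and 0 were lower (edgeR), where 68% of 10613 tested genes were higher and 0.292% lower. TUBA1C had edited reads only in the sorted libraries, so it could only come out higher. The median log2 odds ratio over these 5 was 1.21, also with TUBA1C at the ratio to a floor given below, and over all genes tested 2.33.

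TUBB had 121 of 20174 reads edited (0.600%) and 119 of 14742 (0.807%) in the sorted libraries, and 20 of 20884 (0.0958%) and 25 of 22236 (0.112%) in cytosol. All sorted scores were above all cytosol scores. Pooled over libraries the score was 6.59-fold higher in sorted P-bodies, and the log2 odds ratio was 2.74 ± 0.39 (adjusted p = 6.1e-05, edgeR). TUBA1C had 7 of 2337 and 4 of 1638 reads edited in the sorted libraries and 0 of 2760 and 0 of 3024 in cytosol. Against a floor of 3 edited reads over the cytosol group its score was at least 5.34-fold higher. This holds as long as the listed 0 does not come from a filter of sites. TUBA1C entered the test only through the sorted libraries and could only come out higher. Its adjusted p (0.0032, edgeR) is therefore no separate support for a rise.

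The other members had few C-to-U edited reads in the sort. TUBB2A had 3, 1, 2 and 0, TUBB2B 5, 0, 1 and 2, and TUBB6 2, 0, 1 and 1 in sorted libraries 1 and 2 and cytosol libraries 1 and 2 (1.17 ± 1.26, 1.21 ± 1.185 and -0.01 ± 1.73, adjusted p from 0.38 to 0.995, edgeR). In all 3 the groups overlapped. TUBA1B had 11 edited reads of 10438 in sorted library 1 and none of 7155, 12897 and 13354 in the others. TUBG1 had 2 edited reads, both in sorted library 2. TUBA1A was listed at 0 edited reads in all 4 libraries, among 2422 sorted and 4003 cytosol reads, which allows scores of up to 0.124% and 0.0749%. Centred on the median gene, no member passed (edgeR, 1 at an unadjusted p under 0.05, and TUBB stood at 0.59, adjusted p = 0.297). In that setting 1465 of 10613 tested genes were higher and 389 lower. TUBA1C could not be tested without sorted library 1 or 2, which left 1 library with an edited read.

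The knockdown asked what less EDC4 does to the same RNAs. EDC4 itself had 245 and 186 reads in the siEDC4 libraries and 684 and 609 in the siNC libraries. Both siEDC4 libraries were below both siNC libraries, at 40.3 and 32.7 CPM against 109.8 and 106 CPM. The log2 fold change was -1.56 ± 0.14 (adjusted p = 2.6e-25, edgeR).

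Among the tubulin genes TUBA1A had more reads after the knockdown, and the other 9 members did not pass. TUBA1A had 1423 and 1222 reads in the siEDC4 libraries and 911 and 837 in the siNC libraries, or 234 and 214.5 CPM against 146.2 and 145.8 CPM. Both siEDC4 libraries were above both siNC libraries. The log2 fold change was 0.62 ± 0.12 (adjusted p = 7.0e-05, edgeR), where 0.432% of 10642 tested genes were higher and 0.132% lower. With 4 libraries and the replicate block it was still the 1 member that passed. DESeq2 gave 0.62 without a call (adjusted p = 0.127), and called 3 genes in all. The value was between 0.55 and 0.68 with any 1 library left out. Without a siEDC4 library 1 sample is left in each group, and the value has no test.

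TUBA1C, which overlaps TUBA1A by 345 bases on the other strand, had 251 and 258 CPM in the siEDC4 libraries and 226 and 219 CPM in the siNC libraries (0.19 ± 0.11, adjusted p = 0.781, edgeR). TUBA1B, its nearest copy in coding sequence, had 1378 and 1445 CPM against 1377 in each siNC library (0.04 ± 0.10, adjusted p = 0.99). TUBB had 1613.5 and 1682 CPM against 1579 and 1596 (0.05 ± 0.10, adjusted p = 0.977). The values of these 3 were smaller than that of TUBA1A, and their differences from it were not tested. The remaining members lay between -0.0024 (TUBG1) and 0.19 (TUBB6 and TUBB2B), and the median was 0.06 over the members and -0.0031 over all genes tested.

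**Figure D3:**
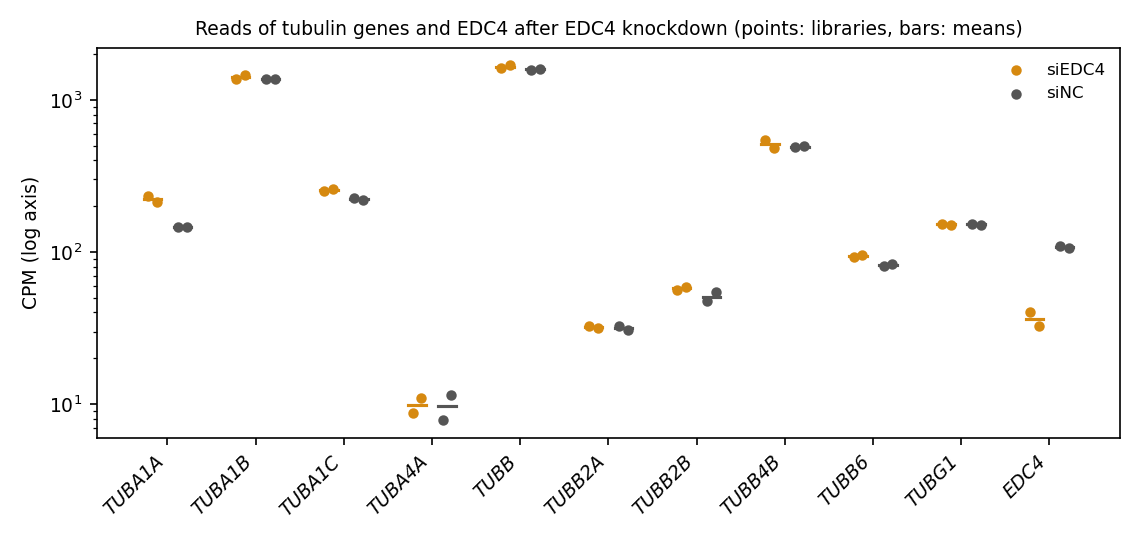
CPM (log axis) of the 10 tubulin genes and of EDC4 in the knockdown, with 1 point per library and a bar at the mean of each group, siEDC4 in orange and siNC in grey. EDC4 lies at 40.3 and 32.7 after its knockdown against 109.8 and 106, TUBA1A at 234 and 214.5 against 146.2 and 145.8, and the other genes close together.

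Editing after the knockdown was compared in the same way. For A-to-I, 9 members were tested and 0 passed in either direction (edgeR). No gene of the 9157 tested passed (0%), with 491 genes and 0 members at an unadjusted p under 0.05. limma on log2 scores also called 0 genes, with 264 genes and 0 members at an unadjusted p under 0.05. With 2 siEDC4 libraries against 1 summed siNC sample, the spread rests on the siEDC4 pair alone, and 0 calls do not show that scores were equal. The replicate block over 4 libraries called 26 genes and 0 members.

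The A-to-I scores of TUBA1A and TUBA1B were high in every knockdown library. TUBA1A had 7.73% and 8.27% of reads edited after siEDC4 and 7.79% and 7.77% with siNC. TUBA1B had 4.72% and 5.31% against 4.72% and 5.15%. The groups overlapped in both, with log2 odds ratios of 0.04 ± 0.26 and 0.02 ± 0.25 (adjusted p = 1 each, edgeR). Over the siNC libraries TUBA1A stood at the 99.3 percentile and TUBA1B at the 97.4 percentile of the listed genes by pooled score.

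TUBA1C had 0 of 1529 and 4 of 1469 reads edited after siEDC4 and 11 of 1410 and 5 of 1255 with siNC. Its siEDC4 scores (0% and 0.272%) were below its siNC scores (0.780% and 0.398%), and the difference did not pass (-2.13 ± 0.96, adjusted p = 0.845, edgeR). TUBB had 9 edited reads of 19391 after siEDC4, all in library 2, and 1 of 19004 with siNC (2.92 ± 1.80, adjusted p = 0.845). The rest overlapped between the groups: TUBB4B scored 0.788% and 1.52% against 1.21% and 1.09%, and TUBB2A, TUBB2B, TUBB6 and TUBG1 had at most 4 edited reads in any library. TUBA4A had 1 edited read and was not tested.

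**Figure D4:**
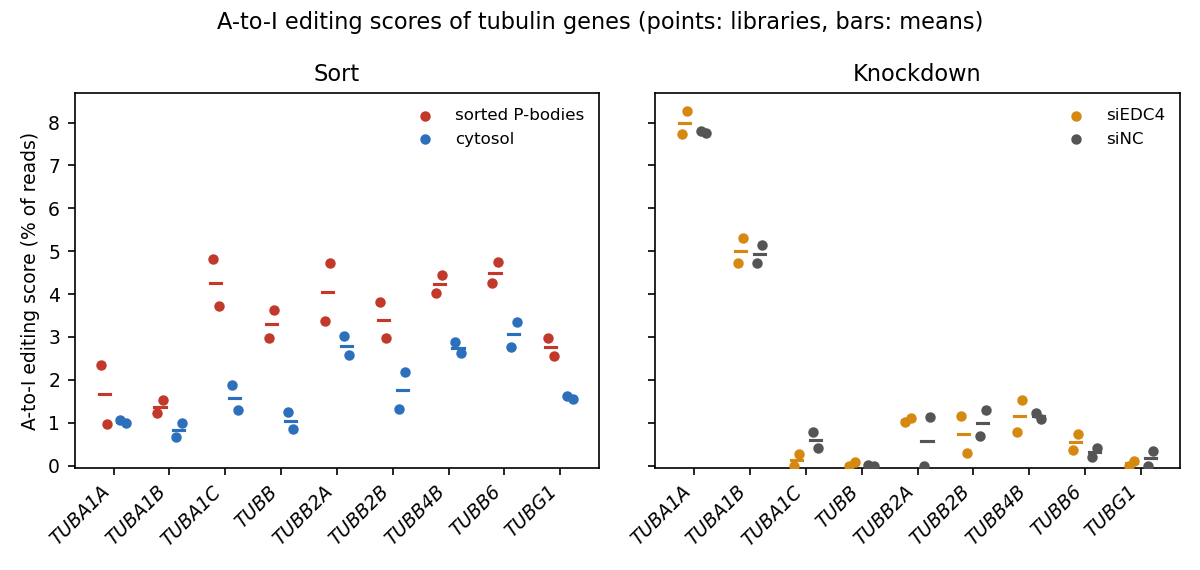
A-to-I editing scores (% of reads) of the tubulin genes other than TUBA4A, with 1 point per library and a bar at the mean of each group, for the sort (left, sorted P-bodies red, cytosol blue) and the knockdown (right, siEDC4 orange, siNC grey). TUBA1A and TUBA1B have the lowest means of the plotted genes in cytosol and the highest in the knockdown, where TUBA1A reaches 8.27%, while TUBB is near 0 there.

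The order of the members by A-to-I score thus differed between the sort and the knockdown. In cytosol TUBA1B, TUBA1A and TUBB stood at the 15.4, 18.8 and 19.2 percentiles of listed genes, and TUBB4B and TUBB6 at the 51.0 and 56.5 percentiles. Summed over alpha-tubulin genes, the score was 1.92% and 1.84% in the sorted libraries, 0.910% and 1.04% in cytosol, 4.44% and 4.94% after siEDC4 and 4.45% and 4.74% with siNC. Summed over beta-tubulin genes it was 3.25% and 3.81%, 1.615% and 1.35%, 0.239% and 0.433%, and 0.295% and 0.301% in the same order. Summed alpha-tubulin was thus below summed beta-tubulin in all 4 libraries of the sort and above it in all 4 of the knockdown. TUBA1B and TUBB had the most reads in these sums, and single genes did not all follow them. TUBA1C scored above TUBB in all 4 libraries of the sort and below TUBB4B in all 4 of the knockdown. The scores come from separate tables for different RNA (fractions and total RNA) with different listed genes, how sites were called is not given, and the cause was not tested.

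For C-to-U after the knockdown, 9 members were tested and 0 passed (edgeR), as for 0% of the 9646 genes tested. At an unadjusted p under 0.05 there were 377 genes and 3 members by edgeR, and 233 genes and 0 members by limma, which also called 0. TUBA1A had 3 of 1433 and 7 of 1225 reads edited after siEDC4 (0.209% and 0.571%) and 16 of 911 and 10 of 837 with siNC (1.76% and 1.19%). Its siEDC4 libraries were lower without overlap (-1.98 ± 0.60, unadjusted p = 0.0087, adjusted p = 0.996, edgeR). TUBA1C with 7, 4, 2 and 0 edited reads (2.19 ± 0.94, adjusted p = 0.996) and TUBG1 with 4, 10, 1 and 2 (2.20 ± 0.89, adjusted p = 0.996) were higher without overlap in siEDC4 libraries 1 and 2 than in siNC libraries 1 and 2, and neither passed.

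TUBB scored 1.92% and 1.70% after siEDC4 and 1.52% and 1.63% with siNC (0.21 ± 0.43, adjusted p = 0.996, edgeR). TUBB2A, from 177 to 203 reads per library, scored 3.52% and 3.31% against 1.48% and 4.52%. It had the highest C-to-U score of the members in every knockdown library but siNC library 1, where TUBB2B (2.34%), TUBA1A and TUBB were above it. TUBA1B scored 0.487% and 0.531% against 0.197% and 0.452%. TUBB6 scored 0.707% and 0.735% against 0.394% and 0.620%, from 4, 4, 2 and 3 edited reads. The groups of TUBB, TUBA1B and TUBB6 did not overlap, and those of TUBB2A did. How many of all genes showed no overlap was not counted in any comparison. TUBB4B had 1 edited read in all 4 libraries, of 6061 reads after siEDC4 and 5887 with siNC. Summed C-to-U scores were higher for beta-tubulin (0.103% to 1.46%, in the sort without TUBB4B) than for alpha-tubulin (0% to 0.516%) in each of the 8 libraries. Most edited reads of the beta-tubulin sums were those of TUBB, and single genes did not all follow the sums. TUBB4B scored below TUBA1B in all 4 libraries of the knockdown.

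**Figure D5:**
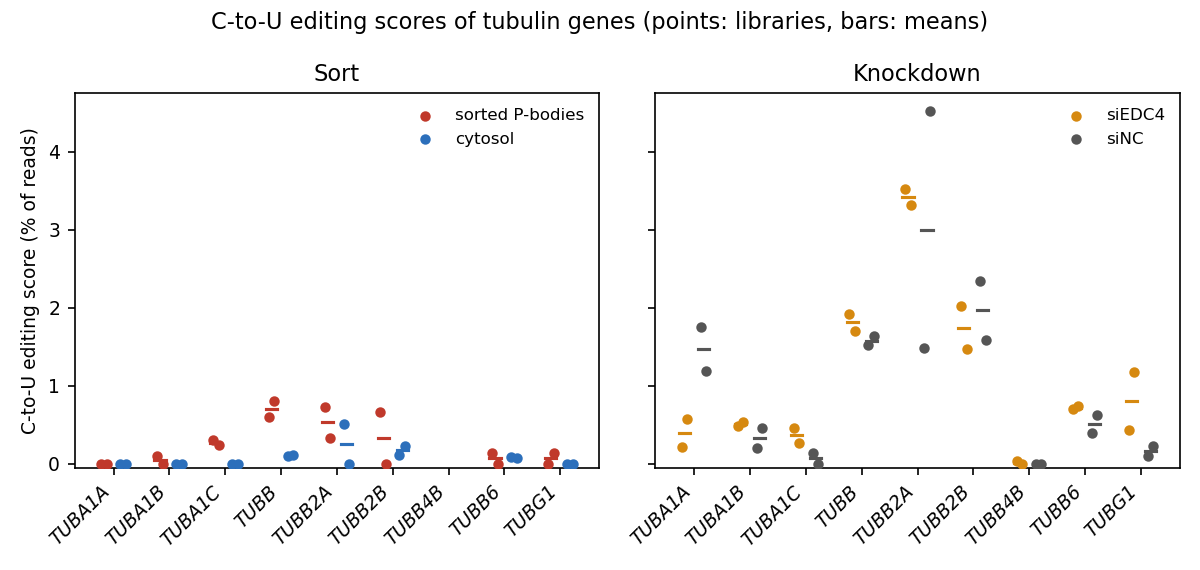
C-to-U editing scores (% of reads) of the tubulin genes other than TUBA4A, with 1 point per library and a bar at the mean of each group, for the sort (left, sorted P-bodies red, cytosol blue, TUBB4B not plotted) and the knockdown (right, siEDC4 orange, siNC grey). In the sort only TUBB and TUBA1C stand clear of their cytosol points, and in the knockdown TUBA1A lies lower in siEDC4 (0.209% and 0.571%) than in siNC (1.76% and 1.19%).

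Genes that act with tubulin were followed by lists. Of the other tubulin genes, 12 in all, 6 were measured in the sort abundance, 2 rose and 2 fell (edgeR, beside 28.8% and 29% of all genes). TUBD1 (0.91 ± 0.12) and TUBE1 (0.60 ± 0.10), the delta- and epsilon-tubulins of centrioles, rose, and TUBG2, the minor gamma-tubulin, fell (-1.10 ± 0.14, adjusted p from 0.00011 to 0.00056). Of the gamma-tubulin ring complex 4 of 9 rose and 4 fell. The ring components MZT1 (1.52 ± 0.11) and TUBGCP6 (1.26 ± 0.10) and the adaptor NEDD1 (1.57 ± 0.14), named for their small adjusted p, rose. MZT2A, MZT2B, TUBGCP2 and TUBGCP4 had mean CPM ratios of sorted P-bodies over cytosol of 0.566, 0.623, 0.752 and 0.734. The ratio of TUBG1, their partner, was 0.884 (log2 fold change -0.18), between those of the genes that went up and down.

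Of the 12 folding genes, which fold tubulin and join the heterodimer, 1 rose and 6 fell (edgeR, beside 28.8% and 29% of all genes). With library-size scaling 0 rose and 10 fell, and between 5 and 10 passed with 1 library left out. The prefoldin subunits PFDN1 (-0.94 ± 0.10) and PFDN6 (-1.59 ± 0.14) and the tubulin cofactor TBCB (-1.53 ± 0.12) fell (adjusted p from 8.8e-06 to 4.3e-05, edgeR). The median of this list was -0.42. Of the 3 autoregulation genes SCAPER rose by 1.65 ± 0.16 and CNOT11 fell (-0.68 ± 0.11, adjusted p = 2.1e-05 and 0.00069). TTC5, which recognises the new chain, rose by 0.28 ± 0.10 (adjusted p = 0.0351) and did not pass with library-size scaling (0.08, adjusted p = 0.528), with DESeq2 (adjusted p = 0.142), without the filter on low counts (0.128), or without cytosol library 1 (0.447) or 2 (0.173).

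Among 18 enzymes that modify tubulin 3 rose and 11 fell (edgeR, beside 28.8% and 29% of all genes). HDAC6, a tubulin deacetylase, rose by 1.27 ± 0.12, and the acetyltransferase ATAT1 (-1.41 ± 0.13) and the polyglutamylase subunit TPGS2 (-1.11 ± 0.10) fell (adjusted p from 1.6e-05 to 1.7e-05, edgeR). Of 31 microtubule-associated proteins 30 were measured, 10 rose and 14 fell (edgeR, beside the same 28.8% and 29% of all genes). The severing enzyme KATNAL1 (1.63 ± 0.11) and the minus-end binder CAMSAP2 (1.65 ± 0.20) rose, and the lattice binder MAP4 fell (-0.96 ± 0.11, adjusted p from 4.9e-06 to 8.2e-05).

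In A-to-I editing of the sort these lists rose with the rest of the genes: 2 of 4 measured other tubulin genes, 6 of 9 ring complex genes, 10 of 11 folding genes, 3 of 3 autoregulation genes, 9 of 17 modifying enzymes and 21 of 27 microtubule-associated proteins were higher (edgeR, beside 73.5% of all genes), and 1 gene, a microtubule-associated protein, was lower. Their medians were 1.04, 1.34, 1.90, 1.62, 0.82 and 1.45, beside 1.46 over all genes. CNOT11 had a log2 odds ratio of 3.05 ± 0.30 (adjusted p = 1.8e-07), and MAP4, lower in abundance, 1.45 ± 0.12 (adjusted p = 3.1e-08). In the reads after the knockdown 0 genes of these 6 lists rose and 1, a microtubule-associated protein, fell (edgeR). Of all genes 0.432% rose and 0.132% fell there.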

How the data were processed

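The members and the gene lists were chosen with earlier results of these data known. Per the submitters' processing notes the reads were handled with FastQC 0.11.9, cutadapt 1.18, STAR 2.7.9a and featureCounts 2.0.1 on hg38; the sources used here do not state annotation, strand, multiple matches or site calling. The authors deposited raw counts per gene for the sort and, per gene and library, edited reads, reads (entered as estimated counts, all whole where used) and the editing score, a fraction that equals edited reads over reads to within 5.0e-08. Each editing table has 3 broken lines, which were left out.

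For counts, filterByExpr and TMM scaling preceded the quasi-likelihood test of edgeR 4.0.16 in R 4.3.3. P-values were adjusted by Benjamini-Hochberg over all genes, with 0.05 as the threshold. Knockdown abundance used the reads of the A-to-I table, so it covers only genes listed there. The same test was applied to edited against unedited reads, with a term for each library, where 2 or more libraries had an edited read of the gene. DESeq2 1.42.0, limma 3.58.1 on log2 scores (pseudocounts 1.19%, 0.233%, 0.438% and 0.565% for A-to-I and C-to-U in the sort and the knockdown) and the alternatives of the closing section were also run. Each SE was derived from the estimate and the F statistic. A count of 0 was given an upper limit of 3 counts, and intervals are exact at 95%; both cover counting error only. The edgeR fits of abundance and of A-to-I editing were tested on simulated data, and C-to-U editing was not. The planted abundance changes were larger than that of any member, and editing changes were planted only in genes with many edited reads. Whether smaller changes would be called was thus not tested. The planted changes were mostly called, except in knockdown A-to-I editing. Signs and sizes were recovered in that comparison but none passed after adjustment, so 0 calls there say little.

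Libraries with the same number share a batch per the labels, which pairs them across groups; deviations of same-numbered libraries correlated by 0.0472 in the sort and -0.0343 in the knockdown. The rule for named genes took all 10 members in each comparison, EDC4, up to 3 genes of each list that passed in the sort abundance by smallest adjusted p, and the 5 genes nearest to the members.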

Additional observations from a re-analysis of the deposited data

How the results depend on the processing

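The number of members past the threshold in the sort abundance (2) became 5 with library-size scaling (1 higher, 4 lower), 4 without the filter on low counts (1 and 3) and 4 with the replicate block (2 and 2), and lay between 1 and 6 with 1 library left out. In A-to-I editing of the sort (7) it became 4 with limma and 3, all lower, when centred on the median gene, and lay between 4 and 7 with 1 library left out; with the replicate block it was 6. In C-to-U editing of the sort (2) it became 0 when centred and lay between 1 and 2 with 1 library left out. In the knockdown reads (1) it became 0 with DESeq2. With library-size scaling the median over all genes in the sort moved from -0.03 to -0.23, and summed alpha- and beta-tubulin moved to -0.46 and -0.12 (exact permutation p = 0.3333 and 0.6667). The replicate block, fitted in every comparison, changed no call of a member beside those of TUBA1A, TUBB2A and TUBB6 given above.

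Members that did not pass changed sign in the sort abundance with library-size scaling (TUBB -0.12, TUBB2B -0.18, TUBB4B -0.20), without the filter (TUBB2B -0.0148, TUBB4B -0.0355), with DESeq2 (TUBB4B -0.0013) and with the replicate block (TUBB4B -0.0027). With 1 library left out, TUBA1C ranged from -0.13 to 0.0723, TUBB from -0.0378 to 0.15, TUBB2B from -0.13 to 0.13 and TUBB4B from -0.14 to 0.11. Centring on the median gene turned A-to-I editing in the sort for TUBA1A (-0.57), TUBA1B (-0.71), TUBB2A (-0.89), TUBB2B (-0.38), TUBB4B (-0.77), TUBB6 (-0.85) and TUBG1 (-0.56), C-to-U editing in the sort for TUBB2A (-0.87) and TUBB2B (-0.87), A-to-I editing after the knockdown for TUBA1A (-0.31) and TUBA1B (-0.33), and C-to-U editing after the knockdown for TUBB (-0.0349). Library-size scaling turned the knockdown reads of TUBG1 (0.0086). With 1 library left out, A-to-I editing in the sort ranged from -0.0764 to 1.22 for TUBA1A, and C-to-U editing there from -3.04 to 1.89 for TUBB2B and from -3.06 to 0.65 for TUBB6. After the knockdown A-to-I editing ranged from -0.0646 to 0.115 for TUBA1B, -0.10 to 4.14 for TUBB2A, -1.27 to 0.29 for TUBB2B and -0.54 to 0.41 for TUBB4B, C-to-U editing from -0.41 to 1.20 for TUBB2A and -0.43 to 0.13 for TUBB2B, and reads from -0.23 to 0.31 for TUBA4A, -0.0212 to 0.0653 for TUBB2A and -0.0191 to 0.0151 for TUBG1. The causes were not tested. Few reads limit TUBA4A and few edited reads limit C-to-U editing.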

Other observations

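The genes whose pattern was most like the tubulin genes were sought over 6 effects: abundance, A-to-I and C-to-U editing, in the sort and in the knockdown, each divided by its standard deviation over the 8492 genes that had all 6. The reference was the median of TUBA1C, TUBB, TUBB2A, TUBB2B and TUBB6, the 5 members with all 6. The nearest genes were GCC1 at a distance of 0.279 standard deviations, NBEAL2 (0.637), PIM3 (0.657), CEP41 (0.677) and NACC2 (0.679). The members themselves lay at 1.09 (TUBB6), 1.185 (TUBB2A), 1.33 (TUBB2B) and 2.56 (TUBB). By distance they stood at the 1.31, 2.14, 3.9 and 50 percentiles of the 8492 genes, in that order. TUBB was thus no nearer to the reference than the median gene. Its distance includes a knockdown A-to-I effect of 2.92 ± 1.80, from 9 edited reads after siEDC4 and 1 with siNC. Whether the members share 1 pattern was not tested. The members also set the reference, so nearness of TUBB6, TUBB2A and TUBB2B to it is partly built in. No distance is given for TUBA1C, whose fitted C-to-U effect in the sort rests on 0 edited reads in cytosol.

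TUBA1A is on the last line of the C-to-U table of the sort, line 11780, apart from the other tubulin genes on lines 10539 to 10549. In the other editing tables it stands next to TUBA1B.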
